A study of Homo sapiens with 12 samples.

Results

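The 43 genes described here encode the receptor chains and Janus kinases that carry interferon signals, the transcription factors they activate, the sensors that detect foreign nucleic acid, and the effectors that interferon induces. They were taken by gene symbol from 2 tables of normalized read counts, 1 per prostate cancer cell line, each with 60314 named entries. All 43 were found in both tables, RIGI under its older symbol DDX58. They fall into 6 receptors and kinases, 5 transcription factors, 7 nucleic acid sensors and adaptors, and 25 interferon-stimulated effectors.

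RNA was sequenced from C4-2B, a castration-resistant line derived from LNCaP, and from 22RV1, another castration-resistant line, both labelled wild type. Controls of each line were kept for 48 h with L-glutamine at 2 mM in a medium otherwise free of it, with fetal bovine serum. The treated cells had the same glutamine and, in addition, 50 nM of 56-mer, an aptamer: a strand of nucleic acid whose fold lets it bind a chosen molecule. The 4 groups had 3 libraries each, which the series calls biological triplicates. Each group is a single established line at a single dose and time. No group that received an interferon or a known sensor ligand was analysed here, so the largest response these cells could give was not measured. The sequence of the 56-mer was not used here, and whether it is DNA or RNA is not given in the sources used here. Its entry into the cells was not measured in these data, so which sensing route could meet it is not known.

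Nucleic acid inside a cell can be recognized by RIGI and IFIH1, which bind RNA and act through MAVS on mitochondria, by CGAS, which binds DNA and acts through STING1, or in endosomes by TLR3 and TLR9. These routes activate IRF3 and IRF7, which switch on interferon genes. Secreted interferon then acts through its receptors, JAK1, TYK2 and JAK2 to form a complex of STAT2, IRF9 and a partner that binds the interferon-stimulated response element in the promoters of effectors. LNCaP, the parent of C4-2B, is known for weak responses to interferon and silenced JAK1, and 22RV1 is known to carry an integrated retrovirus. The comparison asks which parts of this system each line transcribes and whether their levels differ when the 56-mer is present.

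The element's core, GAAA, any 2 bases and GAAA again, was searched on both strands in RefSeq promoters (GRCh38.p14) running from 250 bases before to 50 bases after each gene's start. Any gene listed with several promoters was represented by that with the fewest matches. The letters GAAANNGAAA occurred in 15 of the 20 effector promoters in the table, in 2 of 5 promoters of sensors (IFIH1 and TLR3), and in 0 of 5 of receptors and kinases and 0 of 3 of transcription factors. Over all 27305 promoters 3.21% held them. Those of BST2, ISG15 and OAS3 are shown because these effectors had the highest normalized counts in C4-2B controls, a scale not divided by transcript length. Each sequence is the 150 bases before the start, 5′ to 3′ on the gene's strand, with the core matches in capitals. In BST2 the pair of overlapping matches begins 130 and 124 bases before the start, in ISG15 113 and 107, and in OAS3 the 2 matches lie apart, at 143 and 12. The regions are chr19:17405631-17405780 on the minus strand, chr1:1013347-1013496 on the plus strand and chr12:112938324-112938473 on the plus strand.
BST2: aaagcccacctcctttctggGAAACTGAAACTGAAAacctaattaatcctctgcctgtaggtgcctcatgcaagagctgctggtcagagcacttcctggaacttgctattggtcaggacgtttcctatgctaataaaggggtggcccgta
ISG15: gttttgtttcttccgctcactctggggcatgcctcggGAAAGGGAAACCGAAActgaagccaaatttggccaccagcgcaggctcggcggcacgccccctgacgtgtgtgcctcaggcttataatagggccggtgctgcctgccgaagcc
OAS3: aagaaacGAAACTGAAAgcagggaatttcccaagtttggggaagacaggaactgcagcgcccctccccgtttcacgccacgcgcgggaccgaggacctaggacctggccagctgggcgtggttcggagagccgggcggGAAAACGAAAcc
The matches describe these letters only, and binding was not measured.

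The libraries held 8847368 to 13740386 reads. Libraries differed in how their levels, relative to the line's mean, followed transcript length and GC content. In C4-2B, across 10600 genes, 56-mer 1 fell with length (Spearman rho −0.342), against 0.0714 to 0.261 in the controls. With GC content, 56-mer 2 and 3 rose (0.305 and 0.317), while 56-mer 1 (−0.166) lay within the range of the controls (−0.214 to −0.00957). In 22RV1, across 12430 genes, 56-mer 1 fell with GC content (−0.588), and 56-mer 3 and control 3 rose with it (0.378 and 0.3002). The labelled cell type was checked on 8 luminal prostate genes, all of which were expressed in both lines, at a summed level of 3155 ± 35.6 RPM (reads of a gene per 1000000 reads of its library) in C4-2B controls and 3306 ± 108 in 22RV1 controls (SD, n = 3). Of 12 genes of leukocytes, endothelium and fibroblasts, 3 passed the filter on low values in each line. These were VWF, COL1A1 and PDGFRB in C4-2B, with control means of 148, 375 and 12.1 normalized counts, and COL1A1, COL1A2 and LUM in 22RV1, with 286, 21.2 and 25.9. The T cell gene CD3E had no read in any of the 12 libraries. The summed level of these 12 genes ranged from 38.9 to 58.4 RPM in C4-2B controls and from 33.6 to 46.1 with 56-mer, and from 28.98 to 31.1 and 28.7 to 38.7 in 22RV1. In a bulk sample, fewer cells with a transcript and less transcript per cell cannot be told apart.

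A gene was taken as expressed when its normalized read count, that is, reads divided by a size factor of the library, reached 10 in 3 or more of a line's 6 libraries. By this rule 31 of the 43 members were expressed in C4-2B and 29 in 22RV1, 25 of them in both. All 6 receptors and kinases, 4 of 5 transcription factors, 4 of 7 sensors and 11 of 25 effectors passed in both lines. STING1, CGAS, OAS1, IFIT1, IFIT2 and IFI44 passed in C4-2B only, and IRF9, RSAD2, CMPK2 and SAMD9 in 22RV1 only. The 8 members that passed in neither were TLR9 and the effectors IFIT3, IFI44L, MX2, OAS2, OASL, XAF1 and CXCL10. In GENCODE 29, 6 of the 43 (IFNAR2, IRF1, IRF3, IRF9, TLR9 and XAF1) share over 10% of their exonic bases with another gene model, so their counts are less certain. Expressed members were mostly below the middle of the range: 9 of 31 reached the median control level of tested genes in C4-2B (207 normalized counts) and 11 of 29 in 22RV1 (192).

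Between genes, levels were compared per kilobase of the longest coding transcript. In C4-2B controls BST2, a membrane protein that tethers budding virus, was highest, at 177 ± 13.1 RPM per kilobase (SD, n = 3). ISG15, a ubiquitin-like protein joined to other proteins, followed at 82.8 ± 7.12, then IRF3 at 64.6 ± 2.97 and IRF7 at 34.3 ± 2.95. In 22RV1 the order began with ISG15 at 109 ± 10.7, IRF3 at 38.3 ± 6.37 and STAT2 at 22.5 ± 1.11. In 22RV1 the next places were close: MAVS at 17.1 ± 0.528, IFNGR1 at 15.0 ± 1.25, TYK2 at 14.9 ± 0.891 and IFNAR1 at 14.4 ± 0.613, of which the last 3 differed by less than their spread.

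**Figure D1:**
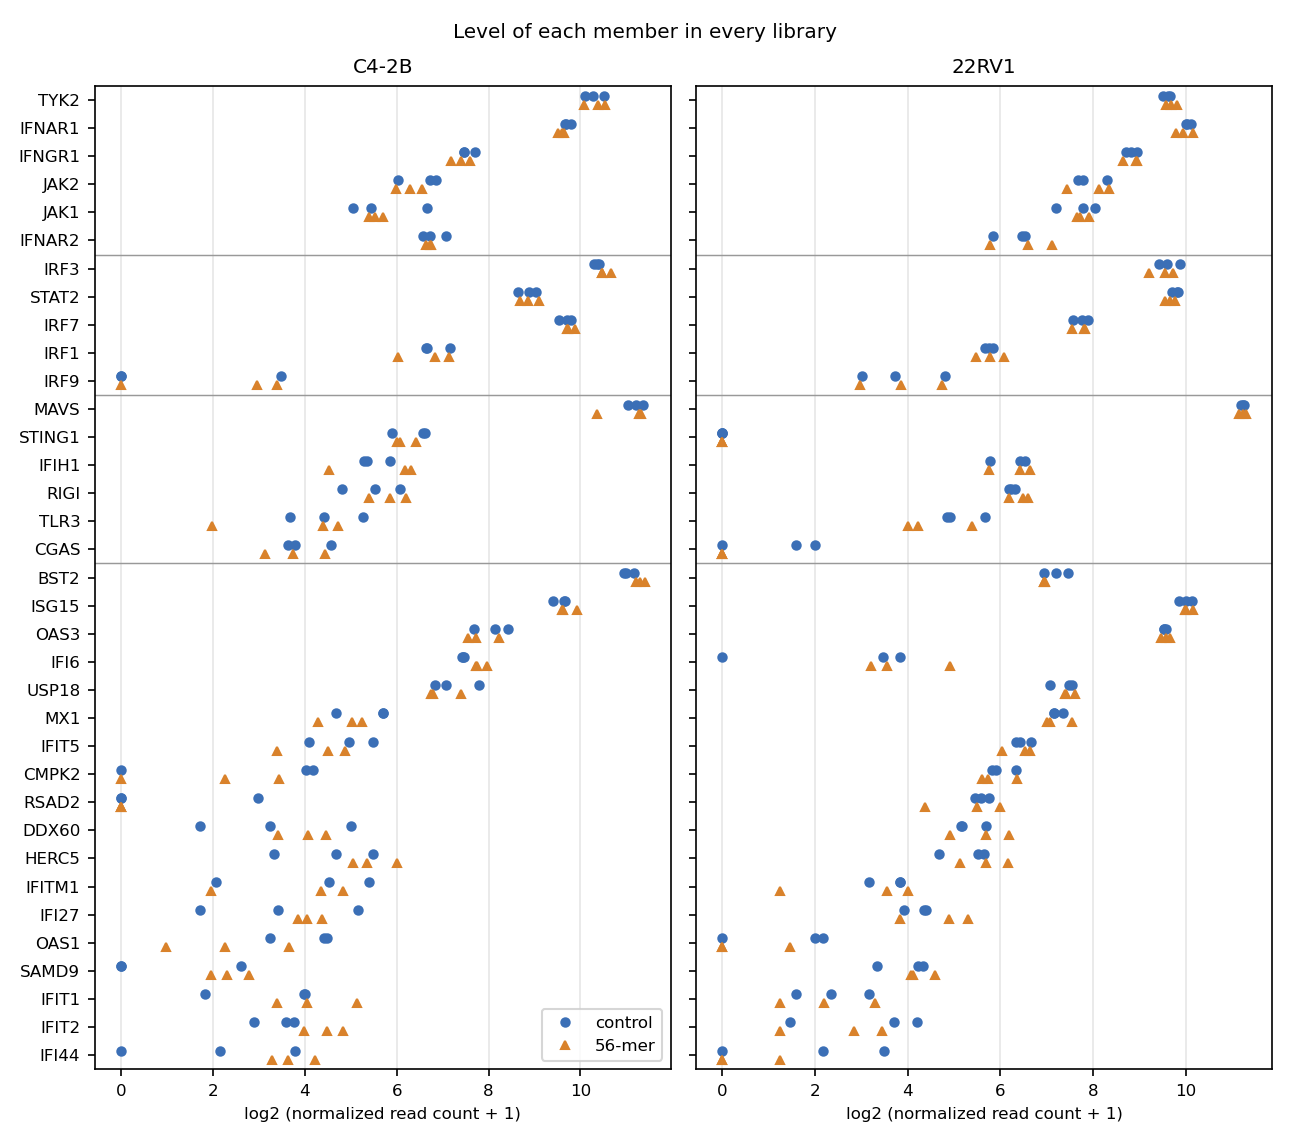
Each of the 35 members expressed in at least 1 line is a row, grouped by role, and each of the 6 libraries of a line is a point on an axis of log2 of the normalized read count plus 1, with controls as circles and 56-mer as triangles. BST2 stands near the top of the scale in C4-2B and much lower in 22RV1, STING1 lies at 0 in all 22RV1 libraries, and circles and triangles overlap for all but 5 rows in C4-2B and for all rows in 22RV1 that passed the filter.

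The lines were compared on RPM in their controls. The lines come from separate tables, so line and table cannot be told apart, and levels are set side by side without a test. Of the 35 members expressed in either line, 14 were higher in every 22RV1 control than in any C4-2B control, 10 were higher in C4-2B and 11 overlapped. Across 21647 genes the controls of the lines did not overlap for 77.7%; 52.7% of the genes were higher in 22RV1 and 25% higher in C4-2B, so the share of members that separated is near that of other genes.

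Receptors and kinases were present in both lines. JAK1, the kinase that both interferon receptor types use, was at 99.6, 42.2 and 32.2 normalized counts in C4-2B controls and 220.0, 263 and 146 in 22RV1 controls; it is named because of its known silencing in LNCaP, after its values were seen. In RPM it was 3.53-fold higher in 22RV1 (17.5 against 4.96), JAK2 2.52-fold and the interferon gamma receptor chain IFNGR1 2.37-fold. JAK1 was low in C4-2B but read in all 6 libraries. TYK2, the kinase paired with IFNAR1, was 1.68-fold higher in C4-2B, while IFNAR1 was 1.23-fold higher in 22RV1.

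Among the transcription factors, IRF7, which amplifies the interferon response, was 3.95-fold higher in C4-2B. STAT2 was 1.84-fold higher in 22RV1, at 73.3 against 39.7 RPM. IRF9, the DNA-binding part of the complex, gave 29 reads in the 6 C4-2B libraries together and passed the filter in 22RV1 only. Its exons share 93.5% of their bases with another gene model, AL136295.5, so its reads cannot be assigned with certainty.

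Of the sensors and adaptors, 1 was read in C4-2B only. STING1, the adaptor for DNA sensing, was at 97.4, 94.7 and 58.5 normalized counts in C4-2B controls and had no read in any 22RV1 library. With a floor of 3 reads over the 22RV1 controls, its C4-2B level was at least 89.1-fold higher, and 0 reads in the 6 libraries allow up to 0.0408 RPM, for counting error only. CGAS, the DNA sensor upstream of it, was 9.65-fold higher in C4-2B, with 5 reads in the 6 22RV1 libraries. The RNA route was transcribed in both lines: MAVS was at 202 and 200 RPM in C4-2B and 22RV1, and RIGI was 1.58-fold higher in 22RV1. The mean of IFIH1 was 1.67-fold higher in 22RV1, but its controls overlapped (3.30 to 4.88 RPM in C4-2B, 4.51 to 7.65 in 22RV1). TLR3, the endosomal sensor of double-stranded RNA, was at 1.99 RPM in C4-2B and 2.97 in 22RV1. TLR9, the endosomal sensor of DNA, had no read in any of the 12 libraries. It shares 83.5% of its exonic bases with another gene model, AC097637.1, and whether reads on both were counted was not tested.

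Effectors did not run one way between the lines. IFI6, a small interferon-induced membrane protein, was 22.9-fold and BST2 14.6-fold higher in C4-2B, and OAS1, which makes the activator of RNase L, 7.91-fold. In 22RV1 the antiviral enzyme RSAD2 was 20.3-fold higher and its genomic neighbour CMPK2, a nucleotide kinase, 5.80-fold. The GTPase MX1 was 3.42-fold higher in 22RV1, IFIT5, which binds viral RNA ends, 2.86-fold, and OAS3, a larger relative of OAS1, 2.63-fold. The RSAD2 ratio rests on 6 reads in C4-2B, all in control 2, without which RSAD2 had no read in this line. The 22RV1 libraries together held 9 reads of OAS1. USP18, which removes ISG15 and restrains the receptor, was at 13.3 and 13.8 RPM.

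**Figure D2:**
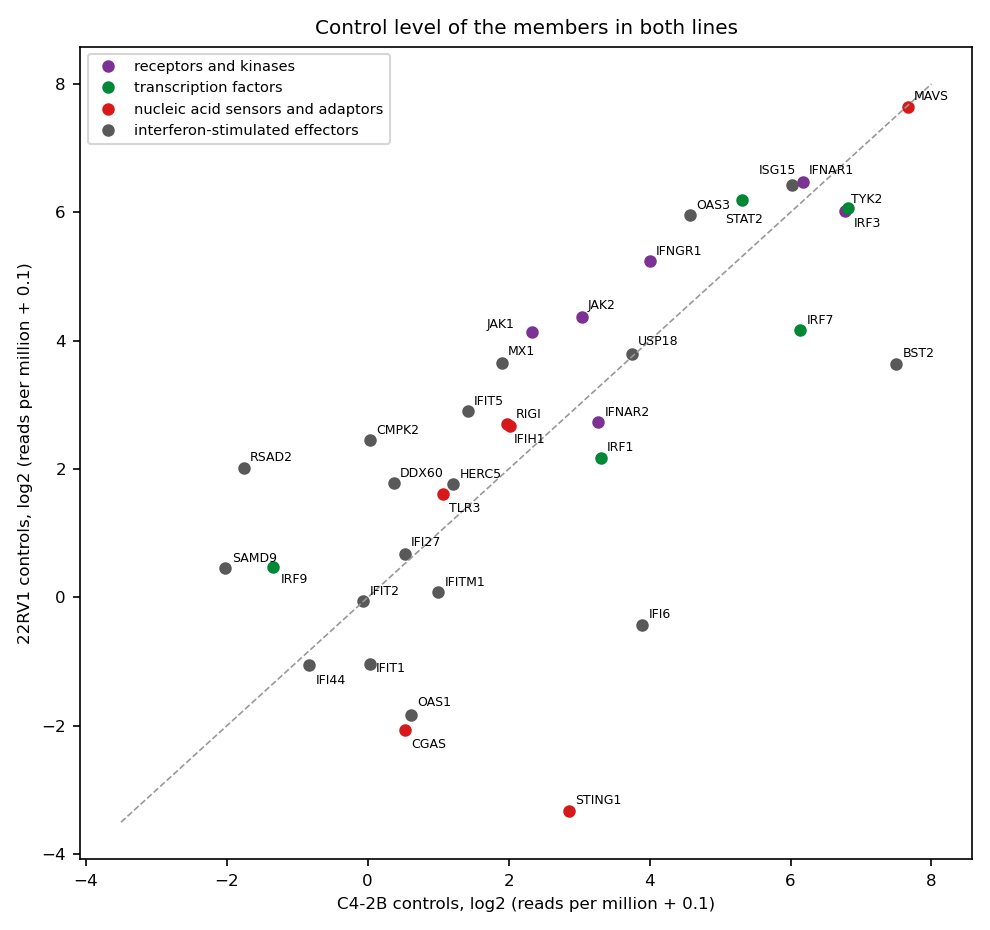
Each point is 1 of the 35 expressed members, placed by its mean control level in C4-2B (horizontal) and 22RV1 (vertical) on axes of log2 of RPM plus 0.1, coloured by role, with a dashed line of equal level. MAVS and USP18 lie on the line, BST2, IFI6, IRF7 and STING1 lie below it and RSAD2, MX1 and JAK1 above it.

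With 56-mer, no member passed limma's test in either line at an adjusted p of 0.05 (Benjamini-Hochberg over 16657 genes in C4-2B and 20517 in 22RV1). Of all tested genes 0.066% passed in C4-2B and 0.00975% in 22RV1. At an unadjusted p under 0.05, 1 of 31 members passed in C4-2B, BST2, against 8.92% of tested genes, and 0 of 29 in 22RV1, against 3.91%. The edgeR and DESeq2 tests on reads worked back from the tables called 0 members in each line as well, and at an unadjusted p under 0.05 both gave BST2 alone in C4-2B and none in 22RV1. Of all genes edgeR called 0% in C4-2B and 0.00975% in 22RV1, and 8.06% and 3.72% at an unadjusted p under 0.05. DESeq2 called 1.72% and 0.0146% of the genes that it gave an adjusted p, and 7.91% and 3.23% at an unadjusted p under 0.05. It gave an adjusted p to 4 of the 31 members in C4-2B and to 29 of 29 in 22RV1. In the authors' deposited table the smallest unadjusted p of a member was 0.00705, for BST2 in C4-2B, with an adjusted p of 1.

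Pooled over all roles, the members had a median change near that of all genes, while in C4-2B the medians of the roles differed in sign. The median log2 change of the members was −0.09 in C4-2B, where that of all tested genes was −0.01. With 56-mer, 15 of 31 had a higher mean, against 48.3% of all tested genes. In 22RV1 the median was 0.01, against −0.00263 for all tested genes, and 16 of 29 were higher, against 49.4% of all tested genes. By role, the median log2 change in C4-2B was 0.25 over 15 effectors, −0.20 over 6 sensors, −0.14 over 6 receptors and kinases and 0.06 over 4 transcription factors. In 22RV1 it was 0.03 over 14 effectors, 0.01 over 4 sensors, 0.07 over 6 receptors and kinases and −0.02 over 5 transcription factors. The effector median of 0.25 in C4-2B was the change of BST2, the middle value of the 15. Taken per library, the median log2 deviation of these effectors from their line mean was 0.18, −0.16 and −0.23 in C4-2B controls. With 56-mer this deviation was 0.28, −0.04 and 0.28, so the groups overlapped. Of the 25 members tested in both lines 8 had a higher mean with 56-mer in both, 6 a lower mean in both and 11 opposite signs.

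BST2 in C4-2B was at 2305, 2038 and 1983 normalized counts in controls and at 2692, 2498 and 2349 with 56-mer. Every 56-mer library was above every control, and the means were 2109 ± 172 and 2513 ± 172 (SD, n = 3). The log2 change was 0.25 ± 0.087 (SE; 95% confidence interval 0.07 to 0.43), with limma adjusted p = 0.417, so it did not pass. With each library adjusted for the GC content and length of the transcripts, the log2 change was 0.14. In 22RV1 BST2 was at 176, 122 and 147 in controls and 122, 124 and 122 with 56-mer, and the groups overlapped (log2 change −0.25 ± 0.20, limma adjusted p = 0.9996).

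Among the other effectors, IFI6 in C4-2B was at 170.2, 173 and 175 in controls and 211, 249.9 and 213 with 56-mer, groups that did not overlap. Its log2 change was 0.37 ± 0.19 (limma adjusted p = 0.587). In 22RV1 IFI6 was near the filter, at 10, 0 and 13.2 in controls and 10.7, 8.20 and 29.2 with 56-mer, and its log2 change of 1.46 ± 0.89 became 0.25 without control 2. ISG15 was at 811, 792 and 678 in C4-2B controls and 967, 778 and 784 with 56-mer, and at 929, 1031 and 1128 in 22RV1 controls and 1016, 1032 and 1132 with 56-mer. These groups overlapped in both lines, with log2 changes of 0.15 ± 0.12 and 0.05 ± 0.094, or 0.01 and 0.10 when adjusted for GC content and length.

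OAS3, which makes the same activator of RNase L as OAS1, was at 282, 342 and 203 in C4-2B controls and 186, 211 and 300.1 with 56-mer. In 22RV1 its values were 742, 733 and 760.1 in controls and 755, 803 and 703 with 56-mer, a log2 change of 0.01 ± 0.10. USP18 in 22RV1 was at 178, 133 and 185 in controls and 193, 169 and 168 with 56-mer. None of these groups separated. The summed level of the 25 effectors was 341, 317 and 296 RPM in C4-2B controls and 372, 338 and 332 with 56-mer, and 210.3, 213 and 228 against 215, 220.3 and 220.5 in 22RV1. The sums overlapped between groups in both lines, and in C4-2B BST2 alone gave 181 of the mean of 318 in controls.

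**Figure D3:**
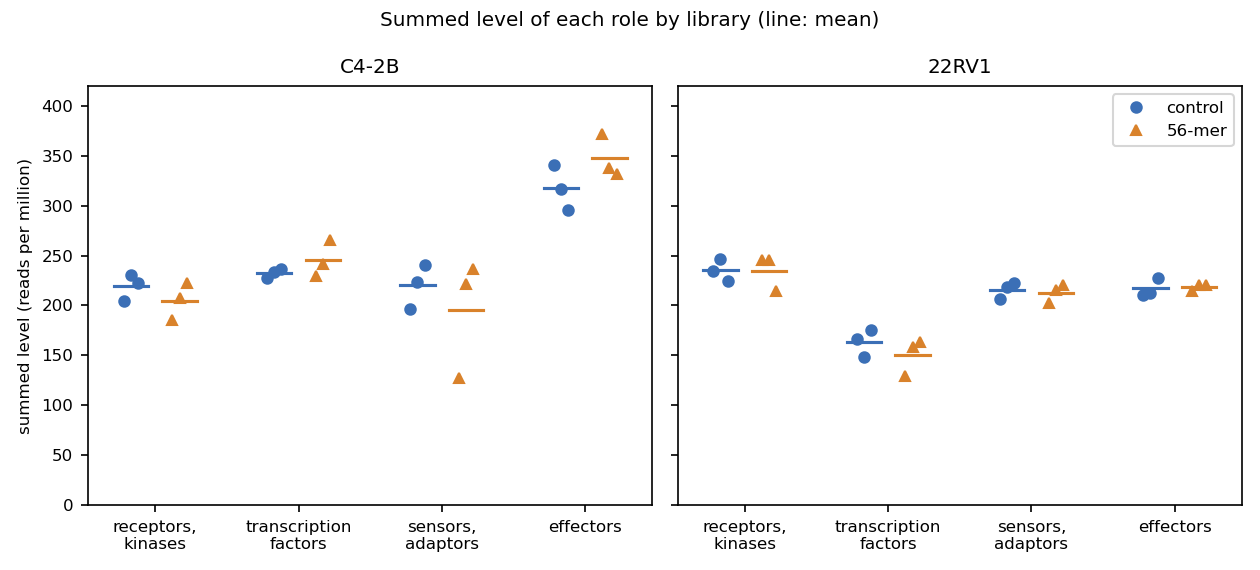
Points are the summed levels, in RPM, of the members of each role in each library, with controls as circles, 56-mer as triangles and a horizontal line at each mean of 3. Control and 56-mer points overlap for all 4 roles in both lines, and the lowest sensor sum in C4-2B, 128 RPM, is that of 56-mer replicate 1.

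The sensors gave no separation between groups. MAVS in C4-2B was at 2102, 2351 and 2613 in controls and 1322, 2480.4 and 2563 with 56-mer, where replicate 1 lay below all others. Its log2 change was −0.21 ± 0.31, and 0.10 without that library. Of the C4-2B libraries, levels fell most with transcript length in 56-mer 1 (Spearman rho −0.342), and less in 56-mer 2 (−0.112). The MAVS transcript is 11714 bases long, and with the libraries adjusted for GC content and length the log2 change was −0.16. Whether length accounts for the low MAVS value was not tested. In 22RV1 MAVS was at 2315, 2416 and 2457 in controls and 2247, 2414 and 2506 with 56-mer. That gave a log2 change of −0.00499 ± 0.073, with a 95% confidence interval of −0.15 to 0.14.

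RIGI was at 45, 66.2 and 27.1 in C4-2B controls and 56.9, 41 and 73.1 with 56-mer. In 22RV1 RIGI was at 74.0, 72.1 and 78.3 in controls and 89.2, 95.6 and 71.6 with 56-mer, and IFIH1 at 54.0, 85.3 and 91.5 and at 99.0, 84.7 and 53.0. STING1 in C4-2B was at 63.7, 65.8 and 84.8 with 56-mer, within the span of its controls (log2 change −0.20 ± 0.32). TLR3 in 22RV1 was at 28.0, 49.7 and 29 in controls and 41, 15.0 and 17.7 with 56-mer, a log2 change of −0.60 ± 0.43 with overlapping groups.

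Of the transcription factors, IRF3, the first factor activated by sensing, was at 1254, 1361 and 1322 in C4-2B controls and 1419.7, 1424 and 1634 with 56-mer, without overlap. The log2 change was 0.18 ± 0.097 (limma adjusted p = 0.592), and in 22RV1 it was −0.13 ± 0.12, from 775, 682 and 940.5 to 589.7, 753 and 847. The C4-2B value was 0.08 when adjusted for GC content and length. IRF3 shares 20.1% of its exonic bases with BCL2L12 on the other strand, and whether counting used strand is not given in the sources used here. IRF7 was at 889, 745 and 829 in C4-2B controls and 830.5, 841 and 936 with 56-mer, and in 22RV1 at 237, 215 and 187 and at 186, 224 and 223. STAT2 was at 395, 525 and 469 in C4-2B controls and 409.8, 543 and 463 with 56-mer, and in 22RV1 at 898, 830.4 and 904 and at 748, 864 and 809.

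IFNAR1, a chain of the type I interferon receptor, was at 811, 824 and 882 in C4-2B controls and 729, 777 and 794 with 56-mer. It was the 1 member lower in every C4-2B library with 56-mer than in any control (log2 change −0.13 ± 0.11, limma adjusted p = 0.774). Adjusted for GC content and length, the change was −0.03. In 22RV1 IFNAR1 was at 1025, 1112 and 1034 in controls and 1135, 973 and 885 with 56-mer. TYK2 was at 1101, 1469 and 1237 in C4-2B controls and 1081, 1332 and 1476 with 56-mer, and in 22RV1 at 812, 725 and 787 and at 760.1, 891 and 815. IFNGR1 was at 175, 206 and 176 in C4-2B controls and 193, 144 and 169 with 56-mer, and in 22RV1 at 447, 494 and 417 and at 494, 481 and 399. JAK1 with 56-mer was at 41.2, 44.8 and 50.7 in C4-2B and 238, 201 and 210.3 in 22RV1, within the span of its controls in each line.

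In C4-2B, 4 members were higher in every 56-mer library than in any control (BST2, IFI6, IRF3 and IFIT2) and 1 was lower (IFNAR1), that is 5 of 31. Of all tested genes 14.7% did not overlap, 7.59% higher and 7.08% lower. By role, 3 of 15 effectors were higher and 0 lower without overlap. Of 4 transcription factors 1 was higher, of 6 receptors and kinases 1 was lower, and of 6 sensors 0 separated. In 22RV1 the groups did not overlap for 0 of 29 members, against 9.03% of tested genes.

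**Figure D4:**
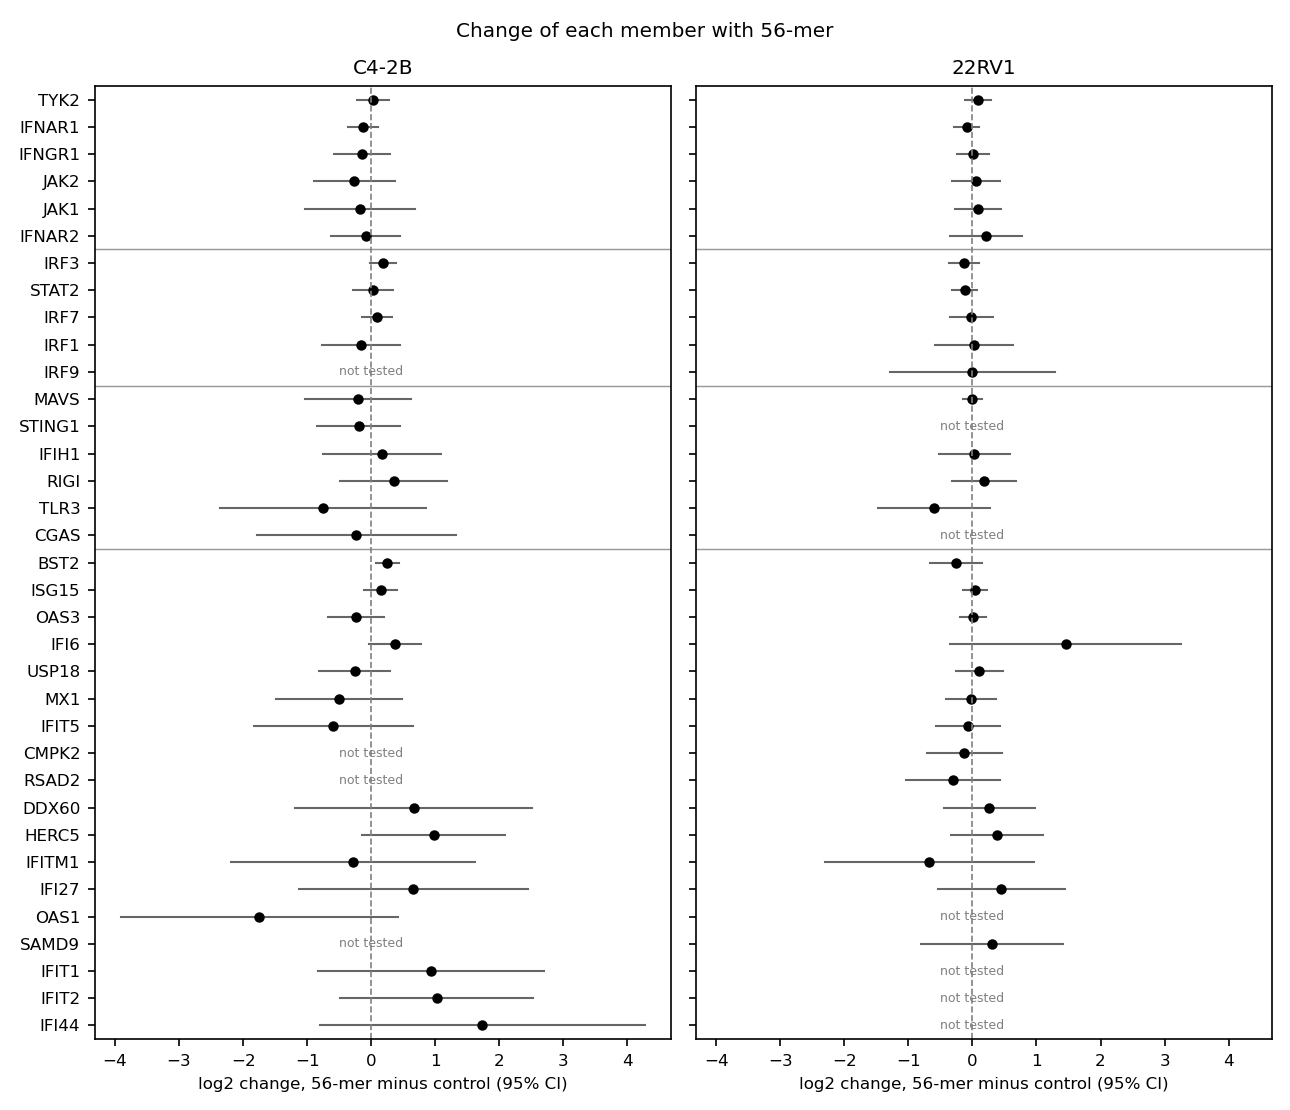
Points are the log2 change of each member with 56-mer against control, with 95% confidence intervals from limma as bars, for C4-2B (left) and 22RV1 (right); members that did not pass the filter are marked as not tested. The interval of BST2 in C4-2B is the 1 that leaves out 0, and the intervals widen from well-expressed members to rarely read ones such as IFI44 and OAS1.

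How large a change these data could miss differed with the level. For 15 of 31 members in C4-2B and 21 of 29 in 22RV1 the 95% confidence interval lay within a change of 2-fold in either direction. Among members with a mean of at least 100 normalized counts, 14 in each line, log2 changes ran from −0.26 to 0.37 in C4-2B and from −0.25 to 0.11 in 22RV1. Below that level they ran from −1.75 (OAS1) to 1.74 (IFI44) in C4-2B, over 17 members, and from −0.68 (IFITM1) to 1.46 (IFI6) in 22RV1, over 15. The interval of IFI44 in C4-2B reached from −0.79 to 4.27, so a large rise of this gene is not bounded at this depth.

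The change with 56-mer was also compared between lines, as the log2 change in 22RV1 minus that in C4-2B, over 15527 genes. No member passed (0 of 25; 0% of all genes passed), and at an unadjusted p under 0.05 BST2 alone did, against 7.9% of genes. Its difference was −0.51 ± 0.18 (SE, n = 3 per group; 95% confidence interval −0.88 to −0.13; limma adjusted p = 0.546). The median difference over the 25 members was 0.06, and 0.01 over all genes.

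The surrounding pathway was read from 5 further lists with 104 genes, of which IRAK4 was not used here. In C4-2B 52 were tested, and in 22RV1 58. None passed limma's test in either line. At an unadjusted p under 0.05, 4 were higher and 2 lower in C4-2B, and 1 was higher and 0 lower in 22RV1, where 8.92% and 3.91% of all tested genes passed. The groups did not overlap for 10 higher and 3 lower of the 52 in C4-2B, among them 6 higher and 1 lower of 17 further interferon-stimulated genes, against 7.59% and 7.08% of all tested genes. In 22RV1 they did not overlap for 4 higher and 0 lower of the 58, against 9.03% in either direction. Interferon genes themselves were hardly read: of 21 listed, none had a read in C4-2B, and IFNL3, with 9 reads in 6 libraries, had the most in 22RV1. IFNLR1, a receptor chain for interferon lambda, was at 0.282 mean normalized counts in C4-2B controls and 206 in 22RV1 controls.

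Of the list of sensing and signal relay, TBK1, the kinase that phosphorylates IRF3, had the smallest p in C4-2B. It was at 393, 445 and 384 in controls and 345, 271 and 279 with 56-mer, lower in each library (log2 change −0.45 ± 0.16, limma adjusted p = 0.446). In 22RV1 TBK1 was at 888, 1046 and 963 in controls and 1163, 1059 and 988 with 56-mer, and the difference between lines was 0.60 ± 0.17 (limma adjusted p = 0.534). IFITM3, which blocks virus entry, led the further interferon-stimulated genes in C4-2B, at 1047, 879 and 1036 in controls and 1229.5, 1289 and 1118 with 56-mer (log2 change 0.30 ± 0.11, limma adjusted p = 0.452). In 22RV1 LAMP3, a lysosomal membrane protein, led that list at 115, 145 and 131 in controls and 187, 232 and 167 with 56-mer (log2 change 0.57 ± 0.19, limma adjusted p = 0.9996).

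Among genes that clear nucleic acid or restrain the response, RNASEH2C, a subunit of the enzyme that cuts RNA paired with DNA, had the smallest p in C4-2B, with a log2 change of 0.19 ± 0.084 (limma adjusted p = 0.518). Its C4-2B groups did not overlap. Of 13 NF-kB targets, 6 were tested in C4-2B and 5 in 22RV1, and the smallest p in both lines was that of RELB, an NF-kB subunit. RELB had log2 changes of 0.59 ± 0.39 in C4-2B and −0.33 ± 0.33 in 22RV1, with limma adjusted p of 0.685 and 0.9996.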

How the data were processed

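Total RNA of 12 libraries (2 lines, control and 56-mer, 3 each) was sequenced. The deposited values are a signal per gene: whole multiples of 1 step per library within a tolerance of 0.01, that is, read counts the authors divided by 1 size factor per library, each line separately. The deposited comparison tables give log2 fold changes, their standard errors and p-values, per the file headers; the Wald statistic, a score in the deposited table, was not used. DESeq is named, without a version, in the submitters' processing notes. Which aligner, counting tool, build and annotation were used is not given in the sources used here. An entry without a symbol, 1 per line, was left out.

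The members and lists were chosen with earlier results of these data known. Genes at 10 or more in at least 3 of a line's 6 libraries were tested with limma 3.58.1 (R 4.3.3; lmFit, then eBayes with its trend and robust options), two-sided, after adding 1 to each normalized count and taking log2, with Benjamini-Hochberg adjustment over all tested genes and a threshold of 0.05. Changes of rarely read genes on this scale depend on the added 1. The difference between lines came from 1 fit of the 12 libraries. Alternatives were edgeR 4.0.16 and DESeq2 1.42.0 on the recovered reads (100% of values came out whole), other scalings, filters, pseudocounts and variance settings, a correction for GC content and transcript length (GENCODE 29), and leaving out each library. Procedures were tested on simulated data. RPM are recovered reads per 1000000 of the library total, 8847368 to 13740386. Replicate numbers follow record order; where cultures were not separate, p-values measure only the spread between these samples.

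Given in full were the 3 members of each role with the highest control level per line, any with an unadjusted p under 0.05, and the 3 with the smallest p per line; of the further lists, genes called or with the smallest p.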

Additional observations from a re-analysis of the deposited data

How the results depend on the processing

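No paired analysis was possible because nothing in the sample names pairs a treated library with a control. No member was called in either line or for the difference under any alternative run (16 per line, 20 for the difference), and the smallest adjusted p among the members given in full was 0.142, for BST2 in C4-2B with DESeq2 (range over its alternatives 0.142 to 0.776). Leaving out each library, the median log2 change of the C4-2B members ranged from −0.094 to 0.024, the latter without control 3, and that of the 22RV1 members from −0.027 to 0.048. The median difference between lines ranged from −0.034, without 22RV1 56-mer 1, to 0.155, without C4-2B 56-mer 3. With a mean of at least 50 required, 9 C4-2B members had a higher mean in place of 15, because fewer genes were tested. Scaling to equal totals moved the C4-2B median to −0.13 and that of all tested genes to −0.05; in 22RV1 they were −0.00197 and −0.02. Rarely read effectors have wide intervals at this depth, so changes in them were not detectable unless large.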
